A study of Mus musculus with 4 samples.

Results

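Cyclin-dependent kinase inhibitors are small proteins that bind cyclin-dependent kinases or their cyclins and hold the cell cycle back, above all in G1. The 6 genes described here were Cdkn1a, Cdkn1b, Cdkn2a, Cdkn2b, Cdkn2c and Cdkn2d, found by symbol in the GENCODE M1 annotation of mm9, among 22350 protein-coding genes on the chromosomes of the list. Around each TSS, taken as the 5′ end of the gene record, all Wapal regions within 100 kb were collected, and 3 of the 8323 Wapal regions fell there. Wapal is the protein that releases cohesin from chromosomes, and cohesin is the ring complex that holds sister chromatids together and forms chromatin loops.

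Occupancy was measured in mouse embryonic stem cells (ESCs) by biotin-mediated ChIP-seq, in which a tag on the protein is biotinylated by the ligase BirA inside the cell, and streptavidin beads then pull out the protein with the DNA it holds. The libraries came from 2 independently derived ESC clones that carried Flag/Bio (FB) Wapal as well as BirA, 1 ESC line with BirA alone as the negative control, and 1 input of sheared genomic DNA labelled as from FB Wapal ESCs. FB Wapal was a cDNA introduced into the cells in a vector, so these regions are those of a tagged, added copy of the protein. A single list joined the regions of both clones, so no spread between replicates could be computed and every value below is a description without a test. Of 8497 regions in that list, 174 shared at least 1 bp with one of the 266 BirA regions and were removed, none of them within 200 kb of a Cdkn TSS. The score of a region is the negative log10 of its MACS p-value multiplied by 10, and the regions kept scored from 50.0 to 685 with a median of 81.4 and had a median width of 812 bp.

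The family has a pair of branches. Proteins of the CIP/KIP branch, here p21 from Cdkn1a and p27 from Cdkn1b, bind cyclin and kinase together and act on several kinases, and Cdkn1a is a direct target of p53. Proteins of the INK4 branch, from the 4 Cdkn2 genes, bind Cdk4 and Cdk6 and keep them from D-type cyclins. Cdkn2a is unusual in that separate promoters and first exons give p16Ink4a and the unrelated protein p19Arf, which stabilises p53, and Cdkn2a with its neighbour Cdkn2b is a classical target of Polycomb repression. Cohesin often stands where CTCF is bound, which is why the CTCF core motif was searched in the regions.

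No region was listed within 20 kb of any of the 6 TSSs, and 3 of the 6 genes had 1 region each within 100 kb. The nearest region lay 31.9 kb downstream of Cdkn2c, 57.0 kb upstream of Cdkn1b and 86.1 kb downstream of Cdkn1a. Cdkn2a, Cdkn2b and Cdkn2d had none within 100 kb, and their nearest regions lay at 165, 182 and 311 kb. Across all protein-coding genes a region within 2 kb of the TSS was found for 1.73%, within 10 kb for 8.73%, within 20 kb for 17.9%, within 50 kb for 38.5% and within 100 kb for 60.0%. At the same distances the Cdkn genes counted 0, 0, 0, 1 and 3 of 6, so that most genes of the genome, too, had no region within 20 kb. The median distance to the nearest region was 126 kb for the 6 genes and 73.0 kb for all genes. Cdkn2a and Cdkn2b are neighbours with the same nearest region, and both enter the first median. With this pair counted once, the middle value is the 86.1 kb of Cdkn1a.

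The sequence around the best match to the CTCF core motif is shown for the 3 regions within 100 kb and for both regions that flank Cdkn2a and Cdkn2b, because they are what the comparison of the loci rests on. Each run holds 42 bases of mm9 with the motif strand written 5′ to 3′, and the 12 bases aligned to the core motif are in capitals.
Cdkn1a, 86.1 kb downstream, core at chr17:29314044-29314055, plus strand: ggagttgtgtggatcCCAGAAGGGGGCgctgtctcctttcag
Cdkn1b, 57.0 kb upstream, core at chr6:134813389-134813400, minus strand: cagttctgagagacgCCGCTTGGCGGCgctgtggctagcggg
Cdkn2c, 31.9 kb downstream, core at chr4:109307742-109307753, minus strand: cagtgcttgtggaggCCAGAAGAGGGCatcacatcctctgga
Cdkn2a and Cdkn2b, downstream flank, core at chr4:88775326-88775337, minus strand: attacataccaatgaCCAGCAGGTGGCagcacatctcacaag
Cdkn2a and Cdkn2b, upstream flank, core at chr4:89199326-89199337, plus strand: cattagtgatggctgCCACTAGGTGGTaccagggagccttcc
The first of the flanking pair matched the motif exactly. The Cdkn1a region, the Cdkn2c region and the upstream flank of Cdkn2a and Cdkn2b were 1 mismatch away, and the best match in the Cdkn1b region had 3 mismatches. A match with at most 1 mismatch was found in 74.5% of all regions and in 10.0% of windows of the same width 5 kb away, and an exact match in 28.3% and 0.745%.

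**Figure D1:**
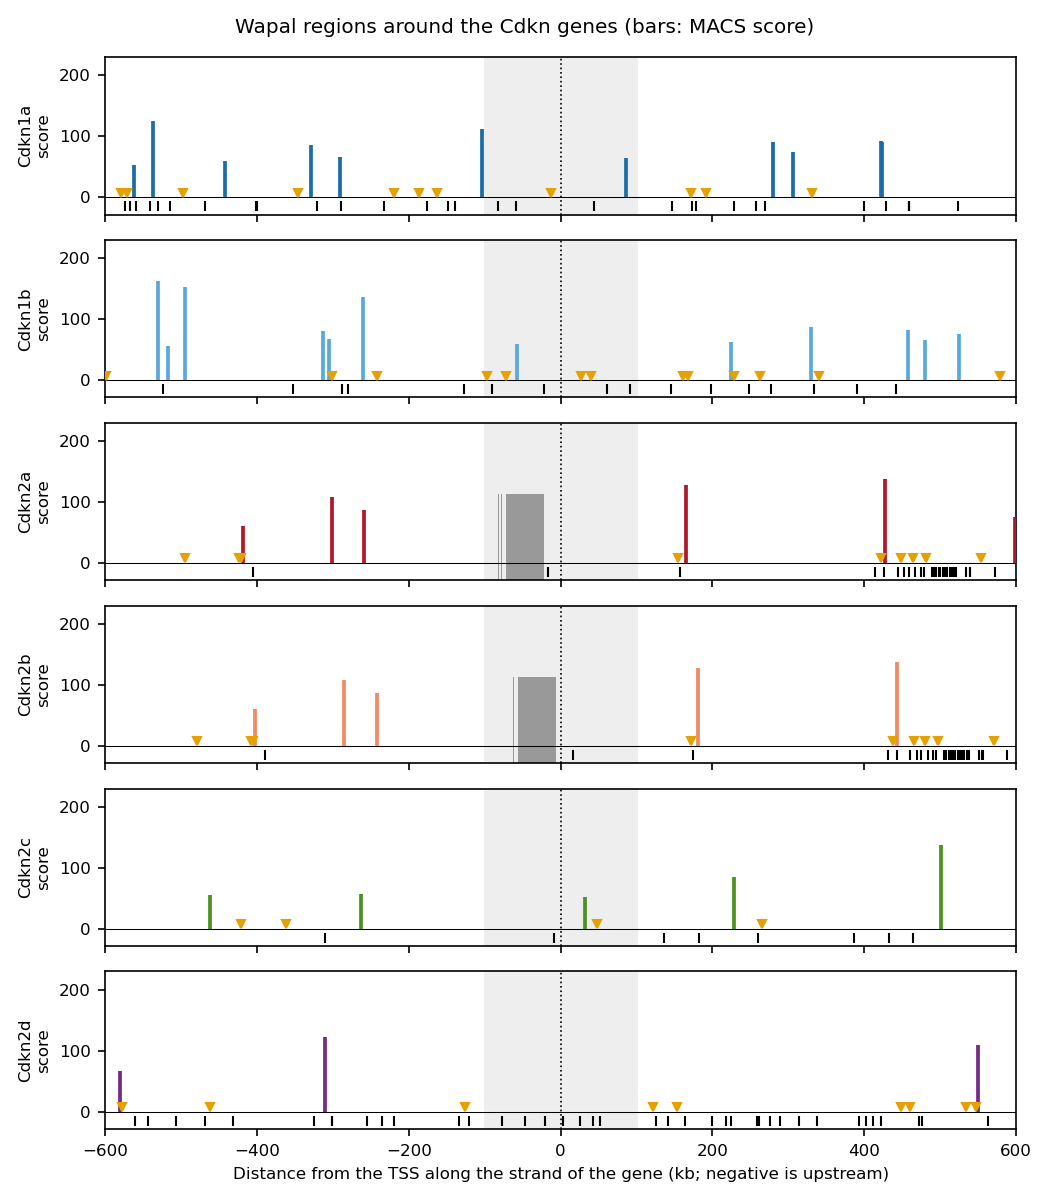
Wapal regions around the TSS of each Cdkn gene, with distance along the strand of the gene in kb on the x axis and MACS score on the y axis; bars are regions, ticks below the line are other protein-coding TSSs, yellow triangles are exact CTCF core motifs outside any region, the light band is 100 kb on either side and dark blocks are unsequenced runs of mm9 in that band. Bars stand in the light band at Cdkn1a, Cdkn1b and Cdkn2c, and none at Cdkn2a, Cdkn2b and Cdkn2d.

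Cdkn1a, which encodes p21, lies on chr17:29227924-29237667, plus strand (ENSMUSG00000023067.7). Its 1 region within 100 kb covered chr17:29313595-29314428, 834 bp wide, with its centre 76.3 kb past the 3′ end of the gene. The region scored 64.21, and 27.8% of all regions scored as low or lower. It lay inside Cpne5, within 2 kb of an annotated start of a Cpne5 transcript, with the TSS of Rab44 between it and Cdkn1a. On the upstream side the first region stood just outside the window, 103 kb away at chr17:29123582-29125285, in an intron of Stk38, a kinase gene. That region scored 111.74 and was 1704 bp wide, and 97.3% of regions were as narrow or narrower. The splicing factor gene Srsf3 and Stk38 itself have their TSSs between it and Cdkn1a.

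The Cdkn1a record starts at an upstream first exon. Transcript Cdkn1a-001 starts 2.79 kb inside the record, and its TSS lay 83.3 kb from the same region. CpG dinucleotides within 500 bp of the TSS were 0.13 of the number that base composition predicts at the start of the record and 0.63 at Cdkn1a-001. The stretch without a region around Cdkn1a measured 188 kb, the shortest of the 5 loci, and 74.2% of all genes lay in one as long or longer. Cdkn1a had 14 regions within 1 Mb, and 93.6% of genes had as few or fewer.

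Cdkn1b, which encodes p27, lies on chr6:134870419-134875531, plus strand (ENSMUSG00000003031.8). Its 1 region within 100 kb covered chr6:134812986-134813787, 802 bp, outside any annotated gene between Gpr19 and Crebl2. The score was 59.23, at or above that of 19.4% of regions. The region had no core motif with 2 mismatches or fewer, a match that 96.5% of all regions held. So did 49.7% of windows of the same width 5 kb away. The downstream flank was farther away, at 224 kb in an intron of Hebp1, with a score of 62.38 and a width of 828 bp. Between it and Cdkn1b lie the TSSs of Apold1, Ddx47 and the G protein-coupled receptor genes Gprc5a and Gprc5d. Cdkn1b had 16 regions within 1 Mb, and 97.1% of genes had as few or fewer. The median over all genes was 8.00.

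Cdkn2c, which encodes p18Ink4c, lies on chr4:109333481-109339794, minus strand (ENSMUSG00000028551.8), and was the Cdkn gene with the nearest region. That region, chr4:109307563-109308144, was 582 bp wide and stood 25.6 kb past the 3′ end of the gene, in an intron of the processed transcript Gm12811. Its score of 52.66 was close to the threshold of the list, and only 5.71% of regions scored as low or lower. The width was also low, with 6.85% of regions as narrow or narrower. It was the 1 region of the 3 within 100 kb whose nearest protein-coding TSS was that of the Cdkn gene itself. The upstream flank lay 263 kb away in an intron of Faf1, scored 57.71 and was 564 bp wide. The stretch between both measured 295 kb, and 58.6% of genes lay in one as long or longer. Cdkn2c had 12 regions within 1 Mb, and 85.6% of genes had as few or fewer.

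The 3 regions within 100 kb all scored below the median of 81.4. Their scores were 52.66 at Cdkn2c, 59.23 at Cdkn1b and 64.21 at Cdkn1a, in the order of their distance from the gene, which with 3 regions is a description only. Without read counts the error of a single score is unknown.

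**Figure D2:**
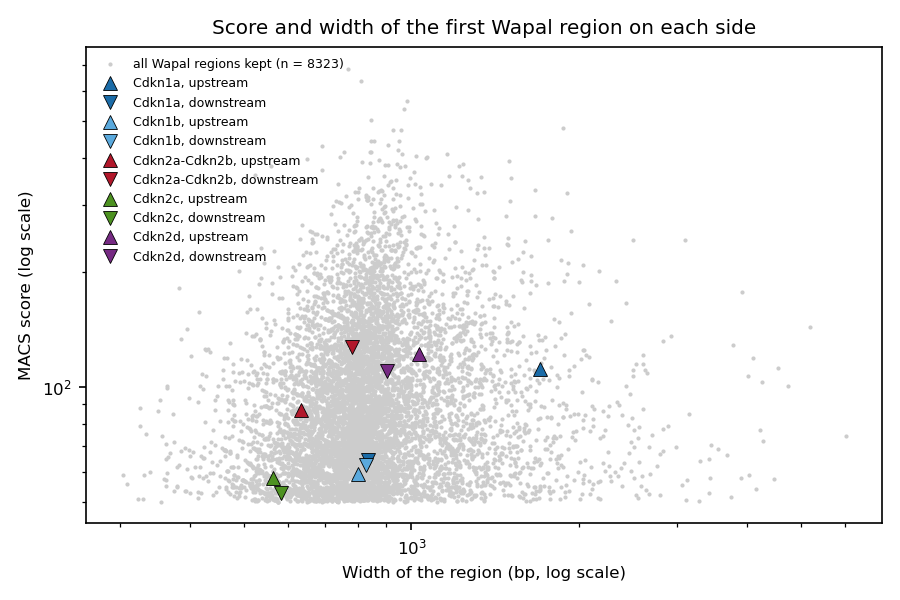
Score against width in bp, both on log axes, for all 8323 regions (grey dots) and for the first region upstream (triangles up) and downstream (triangles down) of each locus, where Cdkn2a and Cdkn2b share theirs. The Cdkn1b and Cdkn2c flanks and the downstream flank of Cdkn1a sit between 52.66 and 64.21, and the upstream flank of Cdkn1a at 111.74 lies with the flanks of Cdkn2a with Cdkn2b and of Cdkn2d, which sit between 87.16 and 127.73.

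Cdkn2a (ENSMUSG00000044303.5) lies on chr4:88920377-88940557 and Cdkn2b (ENSMUSG00000073802.4), which encodes p15Ink4b, on chr4:88952198-88956941, both on the minus strand. Their TSSs are 16.4 kb apart with 11.6 kb between the gene bodies, so that they form 1 locus and share every flanking region. The downstream flank covered chr4:88774968-88775748, 165 kb from Cdkn2a and 182 kb from Cdkn2b. It scored 127.73, the highest of the 10 regions that flank the 5 loci, and 80.1% of all regions scored as low or lower. It lay within 2 kb of the start of the noncoding transcript Gm12602 and 7.67 kb from the TSS of Mtap, the methylthioadenosine phosphorylase gene that neighbours this locus. The upstream flank covered chr4:89198894-89199526, 242 kb from Cdkn2b and 259 kb from Cdkn2a, outside any gene, and scored 87.16. Its nearest protein-coding TSS was that of Dmrta1, 147 kb away.

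Transcript Cdkn2a-001 starts 12.5 kb inside the Cdkn2a record, and its TSS lay 153 kb from the downstream flank. Both promoters of Cdkn2a were thus without a region within 100 kb. The upstream promoter of Cdkn2a was rich in CpG dinucleotides, with 0.98 of the predicted number, and 2.68% of promoters had as much or more, against 0.54 at Cdkn2a-001. The Cdkn2b promoter held 0.74 of the predicted number, and the median over 22347 promoters was 0.55.

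The locus differs from the others in its assembly. In mm9 a run of 50000 unsequenced bases, chr4:88962709-89012708, begins 5.77 kb upstream of the Cdkn2b TSS and ends 55.8 kb upstream of it. A further run of 100 bp lies 1.19 kb upstream of Cdkn2b, and 3 short runs lie farther out. In all, 25.6% of the bases within 100 kb of each gene are unsequenced, a share as high in only 0.251% of genes. No read can be aligned there, and neither a region nor a motif can be listed in these bases. The count of 0 within 100 kb of Cdkn2a and Cdkn2b therefore covers the sequenced bases alone. The windows of the other 4 genes had none missing.

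Against the other loci, Cdkn2a and Cdkn2b had 0 regions within 100 kb where Cdkn1a, Cdkn1b and Cdkn2c had 1 each and Cdkn2d also had 0. The stretch without a region around the locus measured 423 kb, or 372 kb of sequenced bases, and the median over all genes was 365 kb. Among all genes 43.4% lay in a stretch as long or longer, and 49.2% when sequenced bases alone were counted. A nearest region as far away as that of Cdkn2a or farther was found for 25.7% of genes, and for Cdkn2b the share was 23.1%. As annotated, the locus is also thinly populated, since each gene has only the other as a protein-coding neighbour within 100 kb. The count of neighbours and the search for the nearest region likewise cover the sequenced bases alone. Of the 5787 genes with at most 1 such neighbour, 52.8% had a region within 100 kb. Cdkn2c, with the same number of neighbours, was among those that did. Within 1 Mb, Cdkn2a and Cdkn2b had 8 regions each, equal to the median of all genes.

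**Figure D3:**
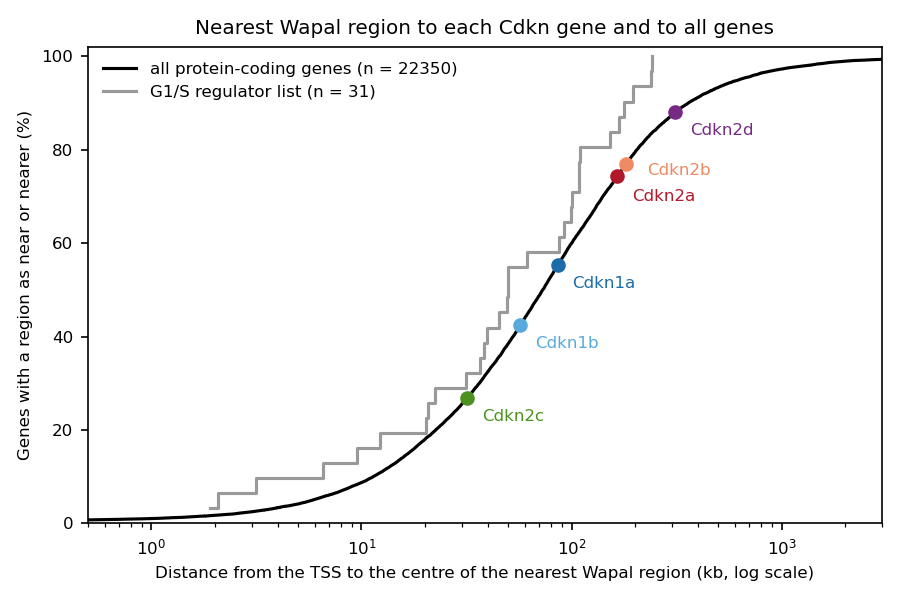
Share of genes in percent (y axis) with a region as near or nearer than the distance in kb on the log x axis, for all 22350 protein-coding genes (black), for 31 other G1/S regulators (grey) and for the 6 Cdkn genes (points). The Cdkn genes spread along the curve from Cdkn2c at 26.9% to Cdkn2d at 88.0%.

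Cdkn2d, which encodes p19Ink4d, lies on chr9:21092907-21095653, minus strand (ENSMUSG00000066860.6), and had the farthest regions of the family. The upstream flank, chr9:21406156-21407188, stood 311 kb away with a score of 122.17, and the downstream flank, chr9:20544633-20545534, 551 kb away with a score of 110.16. The stretch between both measured 861 kb, the longest of the 6 genes, and 18.9% of genes lay in one as long or longer. Unlike Cdkn2a and Cdkn2b, Cdkn2d lies among many genes, with 7 other protein-coding TSSs within 100 kb. Of the 5233 genes with at least 7 such neighbours, 62.2% had a region within 100 kb, and 12.9% lay in a stretch as long as that around Cdkn2d or longer. Between Cdkn2d and its upstream flank lie 10 protein-coding TSSs, among them Carm1 and Dnm2. On the other side lie 22, among them the DNA methyltransferase gene Dnmt1, Keap1, Tyk2 and Icam1. Cdkn2d had 5 regions within 1 Mb, the fewest of the family, and 23.1% of genes had as few or fewer.

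**Figure D4:**
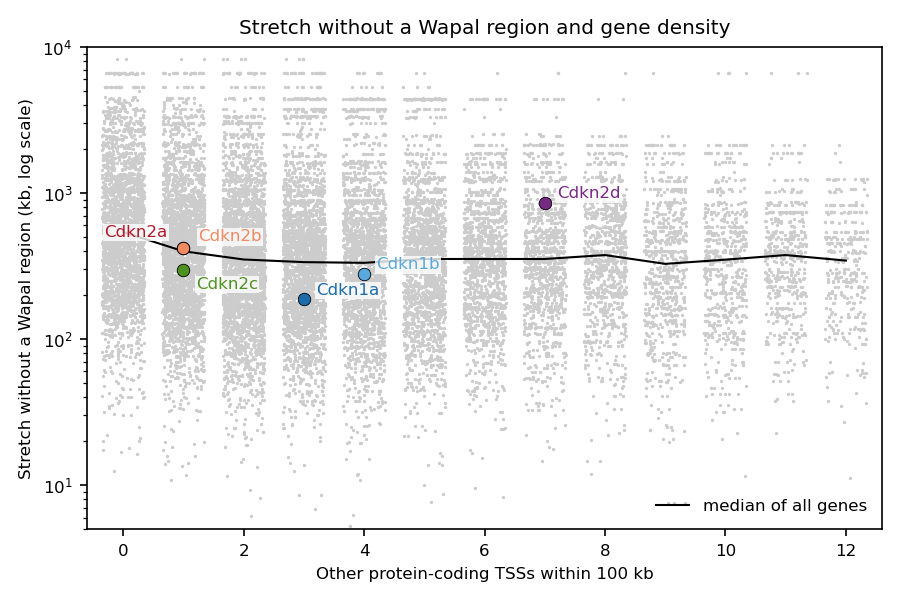
Length of the stretch without a region in kb (log y axis) against the number of other protein-coding TSSs within 100 kb (x axis, spread sideways within each whole number and ending at 12) for all genes (grey), with the median per number (line) and the 6 Cdkn genes (points; Cdkn2a and Cdkn2b coincide). Cdkn2d, with 7 neighbours, lies at 861 kb above the line, and Cdkn1a, Cdkn1b and Cdkn2c lie below it at 188, 281 and 295 kb.

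Exact copies of the CTCF core motif stood within 100 kb of 3 of the genes, and none was inside a Wapal region. There were 4 around Cdkn1b, 1 upstream of Cdkn1a and 1 downstream of Cdkn2c, and Cdkn2a, Cdkn2b and Cdkn2d had none. The median over all genes was 1.00, and 28.6% of genes had none. Across the genome 18.9% of 12717 exact motifs lay in a region, with 18.5% on chromosome 6, 15.7% on chromosome 17 and 18.4% on chromosomes 4 and 9. The count of 0 of 6 around the Cdkn genes stands beside these shares.

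The free motifs nearest to Cdkn1a, Cdkn1b and Cdkn2c are set beside sites that did carry a region, in the same layout as above. Shown with them are the 2 upstream of Cdkn1b, which are compared with the Cdkn2c sites below, and the upstream Cdkn2c flank. The free motif 39.6 kb downstream of Cdkn1b is not shown, and it shared 4 to 11 of 30 flanking bases with the other sites.
Cdkn1a, 13.1 kb upstream, core at chr17:29214841-29214852, minus strand: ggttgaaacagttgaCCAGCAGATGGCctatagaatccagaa
Cdkn1b, 27.2 kb downstream, core at chr6:134897596-134897607, minus strand: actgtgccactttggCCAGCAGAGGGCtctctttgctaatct
Cdkn2c, 47.6 kb downstream, core at chr4:109292208-109292219, minus strand: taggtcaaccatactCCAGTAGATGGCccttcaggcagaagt
Cdkn1b, 72.0 kb upstream, core at chr6:134798402-134798413, plus strand: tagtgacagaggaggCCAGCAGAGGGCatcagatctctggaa
Cdkn1b, 97.4 kb upstream, core at chr6:134773058-134773069, plus strand: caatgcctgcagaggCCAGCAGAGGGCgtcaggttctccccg
Cdkn2c, upstream flank at 263 kb, core at chr4:109603240-109603251, minus strand, in a region: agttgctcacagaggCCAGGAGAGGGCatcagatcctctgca
The motif nearest to any of the 6 TSSs, 13.1 kb upstream of Cdkn1a, lay within 2 kb of the start of Gm16197, and the nearest region to it was 90.4 kb away. The sites of both Cdkn2c flanks resembled each other outside the core, with 21 of 30 flanking bases the same. The Cdkn2c site at 31.9 kb also shared 19 of 30 flanking bases with the free motif 72.0 kb upstream of Cdkn1b and 18 of 30 with that at 97.4 kb, as did the site of the upstream flank with the latter. The other 116 of 120 pairs among the sites of the flanking regions and the free motifs shared 2 to 16 of 30 flanking bases, with a median of 8 over all pairs. Free motifs were listed only where they matched the core exactly, so the exact match of these 2 follows from how they were chosen. The Cdkn2c sites are the best matches inside low-scoring regions and had 1 mismatch each, so the mismatches of both groups cannot be compared. The run agagggcatca, common to both Cdkn2c sites and the free motif at 72.0 kb, was in 2.84% of all regions and in 2.19% of the windows 5 kb away. No repeat annotation was used, and whether these copies belong to a repeat family was not tested.

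Of the 10 flanking regions, 8 held the core motif with at most 1 mismatch, and the exceptions were the regions on both sides of Cdkn1b. Among the 3 regions within 100 kb the count was 2 of 3. With such a match in 74.5% of all regions, neither count sets the regions around the Cdkn genes apart.

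For the rest of the G1/S machinery, a list of 31 genes with the kinases, cyclins, Rb proteins and E2F factors was counted in the same way. The list also held Cdkn1c, Cdkn3, Trp53, Mdm2, Skp2, Cks1b, Myc, Bmi1 and Ezh2. A region lay within 2 kb for 1 of 31 (3.23%), within 10 kb for 5 (16.1%) and within 20 kb for 6 (19.4%). The counts were 16 (51.6%) within 50 kb and 21 (67.7%) within 100 kb. The shares of all genes at these distances were 1.73%, 8.73%, 17.9%, 38.5% and 60.0%. Cdk4 and Cdk6, the kinases that the INK4 proteins bind, had their nearest regions at 61.7 and 50.0 kb. Among the cyclin genes of the list, the nearest region lay at 2.07 kb for Ccnd1, 3.14 kb for Ccnd2 and 6.54 kb for Ccnd3, which encode D-type cyclins, and at 9.58 kb for Ccna1. It lay at 108 kb for Ccne1, 109 kb for Ccne2 and 241 kb for Ccna2, and at 169 kb for Cdk2, the kinase partner of cyclins E and A. The genes named here were chosen with their values in view, and they are given as a description. For the genes of Polycomb proteins in the list, the nearest region lay at 38.4 kb for Ezh2 and 196 kb for Bmi1.

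Cdkn1c, the remaining gene of the CIP/KIP branch, is imprinted and encodes p57. Its nearest region stood 45.2 kb upstream at chr7:150691133-150693183, with a score of 84.36 and a width of 2051 bp, and it was the 1 region within 100 kb. The downstream flank lay 307 kb away and scored 64.77. Cdkn1c had 4 exact core motifs within 100 kb, and none was in a region.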

How the data were processed

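Libraries of 2 FB Wapal ESC clones, 1 BirA line and 1 input were sequenced. Reads were mapped by the authors to mm9 using Bowtie, those with a single alignment were retained, and regions were called over input with MACS 1.4.2 at the default threshold. The deposited value of each region is the MACS score (10 times the negative log10 of its p), which is not normalized between lists. The rule that joined both clones into 1 list is not given in the sources used here. No read counts accompany the regions, so the depth behind each is unknown.

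Wapal regions overlapping a BirA region by 1 bp or more were removed. Distances ran from the TSS (5′ end of the gene record in GENCODE M1) to the region centre, and promoters reached 2 kb from any transcript TSS. The CTCF core motif was searched on both strands of mm9 (NCBIM37), allowing 1 mismatch. The members and lists were chosen with earlier results of these data known. The text names the 6 genes, their regions within 100 kb, and genes nearest to or between them and their flanking regions. Cdkn1c is given by its own values. The G1/S list is given by counts and, beyond the plan, by the distances of some genes chosen with their values in view. Alternatives covered BirA removal, a score of at least 100, merging within 1 kb, the TSS, the distance measured, windows of 50 and 200 kb, all annotated genes, and mismatches. On simulated data the search found 200 of 200 planted motifs and the removal 100 of 100 planted overlaps. Python 3.11.15, numpy 2.4.6 and matplotlib 3.10.9 were used. Expression, Polycomb marks and cohesin occupancy were not analysed here.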

Additional observations from a re-analysis of the deposited data

How the results depend on the processing

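The counts within 100 kb, the distances and the stretches moved most with a stricter score. At a score of at least 100, regions within 100 kb fell from 3 to 0 for all 6 genes together and likewise outside the Cdkn2a and Cdkn2b locus. The median nearest distance of the 6 genes rose from 126 to 221 kb. Over the 5 loci the median stretch rose from 295 to 1012 kb. The share of all genes with a region fell to 27.7% within 100 kb and 2.95% within 10 kb, and the G1/S genes with one within 100 kb to 8 of 31. A window of 50 kb left 1 region, at Cdkn2c. A window of 200 kb held 5, of which 1 was that downstream of Cdkn2a and Cdkn2b. Over all annotated genes the shares were 55.2% within 100 kb and 8.13% within 10 kb, and with the near edge as end point 9.14% within 10 kb. Requiring an exact core motif left 0 of the 3 regions with one. Of 66 values for single genes under these alternatives, 61 stayed within 1.5 times of those reported, and the 5 that did not all came from the stricter score, among them nearest distances of 261 kb for Cdkn1b and 501 kb for Cdkn2c. Counting sequenced bases alone, an alternative chosen after seeing the data, gave 372 kb for the stretch at Cdkn2a. No paired analysis was possible because both clones are joined in 1 list, and for the same reason no replicate could be left out. The precision of a single region is unknown without read counts, and a region missing from the list is one that did not pass the caller at this depth.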
